A study of Mus musculus with 12 samples.

Results

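Fat cells of intraabdominal fat were compared with the other cells of the same fat pad. The comparison took 3 arrays of isolated intraabdominal adipocytes and 3 arrays of the intraabdominal stromo-vascular fraction, 6 of the 12 arrays of the study, chosen by their labels alone. All animals were male C57BL/6 mice of 42 to 49 days, and the tissue of 10 mice was pooled by depot. The labels name no further treatment or genetic change. Intraabdominal fat here is the epididymal pad, and the other 6 arrays hold the same fractions of flank subcutaneous fat. Both fractions were freed by collagenase (1 mg/ml, 45 min). Adipocytes, which float, were washed and their RNA was taken at once. The pelleted stromo-vascular cells alone went through a red-cell lysis buffer and a 25 µm filter and were then plated for 16 h in medium with serum and washed before RNA was taken. Cell fraction and culture therefore went together, and what belongs to the cell type and what to the plating cannot be told apart in any result below. The labels do not say whether the 3 arrays of a group came from separate pools of tissue, so p-values measure only the spread between these samples, which may be technical.

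White fat cells store triglyceride in a single large droplet, take up and make fatty acids after a meal, and release them again by lipolysis in fasting. They also secrete hormones such as leptin and adiponectin. The stromo-vascular fraction is the mixture left when the fat cells float off, which holds fibroblast-like fat cell precursors, cells of vessels, mesothelial cells of the pad's surface and immune cells. Cells of this mixture that attach to plastic spread, build actin stress fibres and can enter the cell cycle, whereas cells that do not attach can be lost in washing.

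Arrays of 1 group resembled each other. Pearson's r across probe sets (which do not count as replicates) was 0.955 to 0.961 between adipocyte arrays, 0.967 to 0.972 between stromo-vascular arrays and 0.814 to 0.829 between the fractions. Median signals averaged 444 ± 34.5 in adipocytes and 498 ± 12.6 in stromo-vascular cells (SD, n = 3 each). Actin control probes at the 3' end of the transcript gave 1.71, 2.24 and 2.16 times the signal of those at the 5' end in adipocytes and 1.20, 1.11 and 1.21 times in stromo-vascular cells. This ratio, which rises as RNA breaks down or is copied less fully, was higher on every adipocyte array (log2 difference 0.79, two-sided exact permutation p = 0.1, the smallest that 20 splits allow). A second fit therefore held each array's actin ratio as a covariate and is called the actin-adjusted fit below; since the ratio itself separates the fractions, this fit also takes away part of the contrast. Each adipocyte array had probe sets at least 2-fold away from both others. On replicates 1, 2 and 3 there were 77, 68 and 204 above and 180, 231 and 123 below. On replicate 3 the inducible heat shock genes Hspa1b (261, 315 and 25362 on the 3 adipocyte arrays) and Hspa1a (2116, 1697 and 56066) were the most extreme of those above.

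Of 8695 probe sets tested, 4462 (51.3%) differed between the fractions, 1944 (22.4%) higher in adipocytes and 2518 (29%) lower. In 5212 probe sets (59.9%) the arrays of the fractions did not overlap. Counted by gene, 3476 (54%) differed: 1532 of 6436 genes (23.8%) were higher in adipocytes, 1944 (30.2%) were lower and 2960 did not pass the test. A probe set or gene was called when limma's adjusted p was under 0.05. Called differences of at least 2-fold numbered 1226 higher (14.1%) and 1643 lower (18.9%) probe sets, and differences of at least 32-fold 67 and 45. The median log2 difference over all probe sets tested was -0.11; it was 0.05 when each array was centred on its own median, and the split then became 2285 higher and 2088 lower. With the actin-adjusted fit 2173 probe sets were called, 935 higher and 1238 lower. Folds are on the scale of signal plus a pseudocount of 40.2, which understates differences of dim genes. Signals of different genes are not compared, except that sums over markers add them, and such sums follow their brightest probe sets. Unless a sentence says otherwise, a gene named below as higher or lower was called, its 3 arrays of one fraction lay all above its 3 arrays of the other, and it kept call and direction in every alternative fit in which it was tested. Arrays measure RNA per amount of RNA loaded, so fewer cells of a type and less RNA per cell cannot be told apart.

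**Figure D1:**
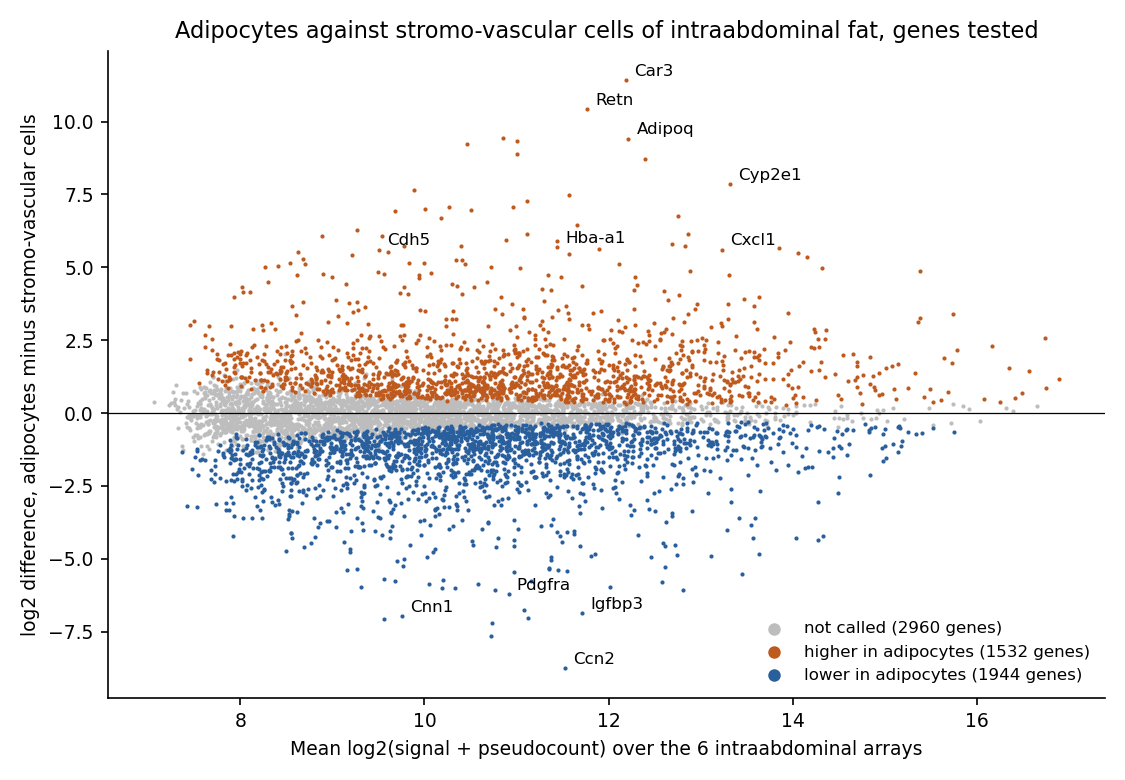
Each point is 1 of the 6436 genes tested; the horizontal axis is the mean log2(signal + pseudocount) over the 6 intraabdominal arrays and the vertical axis the log2 difference, adipocytes minus stromo-vascular cells. The 1532 genes called higher in adipocytes are orange, the 1944 called lower are blue, and labels mark genes from Car3 at 11.42 to Ccn2 at -8.76.

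The 10 genes that led in favour of adipocytes by the rule used here were Car3, Retn, Plin4, Adipoq, Cidec, Ces1d, Nnat, Thrsp, Cyp2e1 and Amy1. Car3, the carbonic anhydrase abundant in fat, had signals of 241400.0, 278857 and 217686 in adipocytes and 43.9, 74.1 and 33.9 in stromo-vascular cells. Its log2 difference was 11.42 ± 0.18 (SE, adjusted p = 2.6e-15). The stromo-vascular signals of Car3 lay near the pseudocount of 40.2 and were not shown to be above background, so the size depends on that choice; it was 12.29 with a pseudocount of 1 and 10.18 with 4 times the main one. Retn, the hormone resistin, had 131281, 140345 and 116802 in adipocytes and 39.8, 41.5 and 84.9 in stromo-vascular cells, and Plin4, a coat protein of nascent lipid droplets, had 46000.1, 52050.3 and 47652 in adipocytes and 30.02, 19.5 and 42.6 in stromo-vascular cells. Their log2 differences were 10.43 and 9.43, between 9.23 and 11.25 and between 7.99 and 10.65 with the other pseudocounts. In these 3 genes every stromo-vascular signal was far below 497, the median of all values, and every adipocyte signal far above it. The rule itself required the higher group mean to reach that median. The log2 differences were 9.42 for Adipoq, 9.35 for Cidec, a lipid droplet protein, 9.25 for Ces1d, a carboxylesterase that hydrolyses triglyceride, 8.88 for Nnat, the imprinted gene neuronatin, and 8.73 for Thrsp, a nuclear regulator of lipid synthesis. Amy1, an amylase, had 7.65. Cyp2e1, a microsomal cytochrome P450, had 153347, 172922 and 141896 in adipocytes and 803, 623 and 501 in stromo-vascular cells and differed by log2 7.86. The order of these genes is not fixed, since it changes with the pseudocount.

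Ccn2, the secreted matricellular factor also called connective tissue growth factor, had 189, 26.2 and 148 in adipocytes and 66021, 54415 and 64679 in stromo-vascular cells. It was 433-fold lower in adipocytes (log2 -8.76 ± 0.44 SE, adjusted p = 4.7e-10), which led the genes lower in adipocytes by the same rule. Aebp1, a secreted collagen-binding protein of preadipocytes, was lower at log2 -7.64, Prss23, a secreted serine protease, at -7.21, and Phldb2, a protein of the cell cortex near focal adhesions, at -7.02. Cck, the peptide hormone cholecystokinin, had 10.3, 18.3 and 52.4 in adipocytes and 8194, 9454 and 8466 in stromo-vascular cells, and Tmem45a, a transmembrane protein, was lower at -6.76. That none of these genes overlapped between the fractions was a condition of the rule that chose them.

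**Figure D2:**
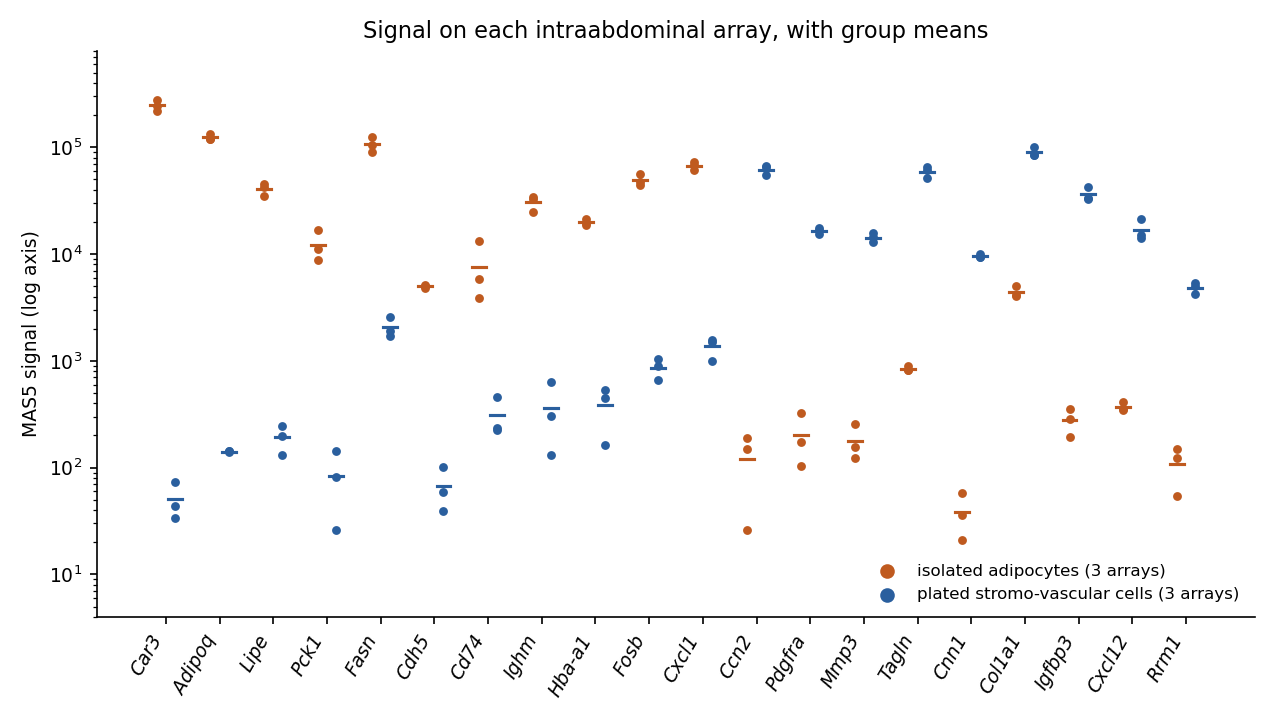
MAS5 signal (log axis) of 20 genes on each of the 6 intraabdominal arrays, adipocytes orange and stromo-vascular cells blue; dots are arrays and bars group means. In every gene the 3 dots of one fraction lie clear of the 3 of the other, which for the leading genes among them the rule of choice required.

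Promoter sequences bear on the leading groups only as description. The 250 bases before each start in RefSeq's mouse annotation (GRCm38.p6) were searched on both strands for the CArG box, bound by serum response factor and written CC, 6 letters of A or T, GG, and for TTNNGCAA, a C/EBP site. Of the 6436 genes tested 5156 had a promoter in the table. A CArG box stood in 1.47% of all 32851 starts and in 1.59% of the genes tested. Of the genes called at least 2-fold it stood in 1.74% of those higher in adipocytes and 2.07% of those lower. It stood in 6 of 41 genes of the actin cytoskeleton list (14.6%), 1 of 13 of the smooth muscle list (7.69%) and 2 of 25 of the immediate early list (8%), but the highest share, 3 of 13 (23.1%), was in the epididymis, testis and germ cell list, and the skeletal muscle list had 2 of 21 (9.52%). TTNNGCAA stood in 9.56% of starts, in 9.89% of the genes tested, in 9.92% of those higher in adipocytes at least 2-fold and in 11% of those lower. It stood in 3 of 13 genes of the adipocyte list (23.1%). Larger shares stood in lists of either side, among them 8 of 18 matrix protease genes (44.4%) and 7 of 21 acute-phase genes (33.3%). The triglyceride assembly list, on the adipocyte side, had 2 of 6 (33.3%), and the lymphocyte, mast cell and granulocyte list 8 of 25 (32%). The adipocyte list held 0 CArG boxes. The stretches below show the match in capitals, 5' to 3' on the gene's strand. Myl9, Lep, Rbp4 and Cidec were chosen by the rule for this search, and Cnn2, Vcl and Zfp36 were added after the search to show genes of the other lists. The first 4 hold a CArG box: Myl9 at chr2:156775258-156775357 (plus strand), Cnn2 at chr10:79988499-79988598 (plus), Vcl at chr14:20929148-20929225 (plus) and Zfp36 at chr7:28379232-28379331 (minus). The last 3 hold TTNNGCAA: Lep at chr6:29060121-29060218 (plus), Rbp4 at chr19:38124887-38124984 (minus) and Cidec at chr6:113434910-113435007 (minus).
Myl9: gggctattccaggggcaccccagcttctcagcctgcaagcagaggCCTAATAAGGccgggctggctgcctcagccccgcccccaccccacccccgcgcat
Cnn2: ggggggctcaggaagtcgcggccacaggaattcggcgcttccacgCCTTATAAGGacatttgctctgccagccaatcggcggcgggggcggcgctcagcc
Vcl: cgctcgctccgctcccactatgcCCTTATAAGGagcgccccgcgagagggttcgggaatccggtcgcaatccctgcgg
Zfp36: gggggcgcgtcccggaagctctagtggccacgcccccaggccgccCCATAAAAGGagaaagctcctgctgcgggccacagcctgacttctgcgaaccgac
Lep: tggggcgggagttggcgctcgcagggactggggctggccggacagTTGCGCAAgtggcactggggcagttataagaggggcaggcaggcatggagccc
Rbp4: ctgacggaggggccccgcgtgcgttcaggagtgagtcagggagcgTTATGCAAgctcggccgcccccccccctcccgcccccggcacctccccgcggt
Cidec: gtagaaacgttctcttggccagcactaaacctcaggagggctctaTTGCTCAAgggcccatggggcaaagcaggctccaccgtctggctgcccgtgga
The first 3 of these genes were lower in adipocytes and the last 4 were higher, as given with their groups below. A match is not shown to be a site of binding.

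Gene groups were read against the share of all genes tested, 23.8% higher and 30.2% lower. The 41 lists held 987 genes on the array, of which 842 passed the filter on low signal; a gene dim in both fractions could not pass it, so counts are over genes tested and not over all members. The share tested was lowest in the lists of lymphocytes (14 of 34), epididymis (8 of 20) and nerve (10 of 17). Among adipocyte markers and adipokines 17 of 17 genes tested were higher in adipocytes and 0 were lower, with a median log2 difference of 5.37; the actin-adjusted fit called 16. Adipoq, the hormone adiponectin, had 119291, 133528 and 120049 in adipocytes and 139, 143 and 142 in stromo-vascular cells, a 684-fold difference. Lep, the satiety hormone leptin whose promoter is shown above, had 60734, 62224 and 37676 in adipocytes and 1565, 2109.8 and 2181 in stromo-vascular cells (26.5-fold). Its stromo-vascular signals were lower than every adipocyte signal, though above the median of all values. Rbp4, a retinol carrier that fat secretes, was higher by log2 4.88. Cidec, which fuses lipid droplets, had 52392, 57792 and 47542 in adipocytes and 29, 88.5 and 18.4 in stromo-vascular cells.

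Of 18 adipogenic transcription factors 11 were higher and 3 lower, with a median of 0.93. The actin-adjusted fit called 7 and 0, and 0 were lower when arrays were centred or when adipocyte replicate 1 or stromo-vascular replicate 1 was left out, and 1 without adipocyte replicate 2. Pparg, the master regulator of fat cell formation, had 3928, 2511 and 3711 in adipocytes and 383, 211 and 195 in stromo-vascular cells, 11.5-fold higher in adipocytes (log2 3.52 ± 0.25 SE, adjusted p = 1.8e-08). Cebpa, its partner in the mature fat cell, was higher by log2 3.99, Nr1h3, the oxysterol receptor LXR alpha, by 4.35, and Zbtb16, a zinc finger factor induced by glucocorticoid, by 7.02. All 3 adipocyte arrays were above all stromo-vascular arrays in each of these 4.

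Genes that handle stored fat stood on the adipocyte side. All 12 of 12 genes tested of the lipid droplet coat and of lipolysis were higher in adipocytes, with a median of 4.50 (10 in the actin-adjusted fit). Lipe, hormone-sensitive lipase, had 42592, 44842 and 34747 in adipocytes and 133, 246 and 198 in stromo-vascular cells, a 178-fold difference (log2 7.48 ± 0.26 SE, adjusted p = 8.2e-12). Pnpla2, adipose triglyceride lipase, which cuts the first fatty acid off, was higher by log2 5.37. For triglyceride assembly and its glycerol phosphate 7 of 8 genes were higher and 0 lower, with a median of 2.89 (6 and 0 in the actin-adjusted fit). Pck1, which supplies glycerol phosphate from lactate and pyruvate in fasting, had 8707, 11234 and 16757 in adipocytes and 142, 25.98 and 82.2 in stromo-vascular cells. Gpd1, which makes glycerol phosphate from glycolysis, was higher by log2 6.15, and Dgat1, which adds the last fatty acid, by 4.22.

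Fatty acid synthesis and desaturation counted 13 higher and 1 lower of 15, with a median of 2.53 (12 and 1 in the actin-adjusted fit). Fasn, fatty acid synthase, had 105765, 123749 and 90620.4 in adipocytes and 2574, 1906 and 1692 in stromo-vascular cells and lay 51.3-fold apart. Pcx, pyruvate carboxylase, which feeds citrate export, was higher by log2 6.13, Scd1, the stearoyl-CoA desaturase, by 4.87 and Acly, which splits citrate to acetyl-CoA, by 3.45. Uptake and carriage of fatty acids was a mixed group, with 6 higher, 2 lower and 5 not called of 13 and a median of 0.36 (5 and 2 in the actin-adjusted fit). Cd36, a fatty acid translocase, was higher by 4.44, Lpl, the lipase that frees fatty acids from lipoproteins, by 3.27, Slc27a1, a fatty acid transporter, by 5.26 and Dbi, the acyl-CoA binding protein, by 4.97. The carrier Fabp5 differed by 0.08 ± 0.13 (SE, adjusted p = 0.65) and was not called.

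Mitochondrial fuel genes were higher in adipocytes almost throughout. Of genes of fatty acid oxidation 15 of 17 were higher and 1 lower, with a median of 2.03 (14 and 0 in the actin-adjusted fit). Acadm, the medium-chain acyl-CoA dehydrogenase, had 39038, 35688 and 35603 in adipocytes and 2750.2, 2757 and 2702 in stromo-vascular cells (13.2-fold). Of genes of pyruvate entry and the TCA cycle 21 of 23 were higher and 1 lower, with a median of 1.29 (20 and 0). Cs, citrate synthase, was higher by log2 1.46 and Idh3a, a subunit of isocitrate dehydrogenase, by 2.05. Of 51 genes of the respiratory chain and ATP synthase 45 were higher and 1 lower, with a median of 1.35 (40 and 1). Uqcrc1, a core subunit of complex III, had 18689, 18366 and 15108 in adipocytes and 3700.2, 4064 and 4433 in stromo-vascular cells. The medians of these last 2 lists were smaller than that of fatty acid oxidation.

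Breakdown of branched-chain amino acids, a source of acetyl-CoA for lipid in fat cells, followed the same direction. In this list 15 of 16 genes were higher and 1 lower, with a median of 2.15 (14 and 1 in the actin-adjusted fit). Bcat2, the mitochondrial aminotransferase of the first step, had 11719, 11115 and 9632 in adipocytes and 460.1, 691 and 473 in stromo-vascular cells (18.9-fold), and Bckdha, a subunit of the dehydrogenase of the next step, was higher by log2 4.13. Of brown fat and thermogenic genes 4 of 7 were higher and 0 lower, with a median of 1.15 (3 and 0). Ucp1, the uncoupling protein that defines brown fat, was not called in either direction. Its signals were 83.3, 166 and 181 in adipocytes and 48.99, 139 and 119.5 in stromo-vascular cells (log2 0.38 ± 0.37 SE, adjusted p = 0.42), and no difference was detectable with 3 arrays a group.

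Genes of insulin action and hormone receptors of fat cells counted 12 higher and 5 lower of 19, with a median of 1.08 (7 and 3 in the actin-adjusted fit). Slc2a4, the insulin-regulated glucose transporter GLUT4, had 5549, 4709.9 and 4902 in adipocytes and 249, 103 and 129 in stromo-vascular cells (26.6-fold). Tshr, the thyrotropin receptor, was higher by log2 5.43, Ptger3, an antilipolytic prostaglandin receptor, by 5.01 and Akt2, the kinase isoform that acts in insulin-stimulated glucose uptake, by 2.69. Igf1r, the receptor for IGF-1, was lower at log2 -1.99. Glucose uptake and glycolysis as a list did not lean to adipocytes: 5 were higher and 8 lower of 19, with a median of -0.24 (1 and 4 in the actin-adjusted fit). The number higher was 3 with quantile normalization and 3 without adipocyte replicate 2. Pkm, pyruvate kinase, had 14284, 16839 and 13685 in adipocytes and 34761, 46806 and 41364 in stromo-vascular cells and Pgk1, phosphoglycerate kinase, was lower at log2 -1.86.

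**Figure D3:**
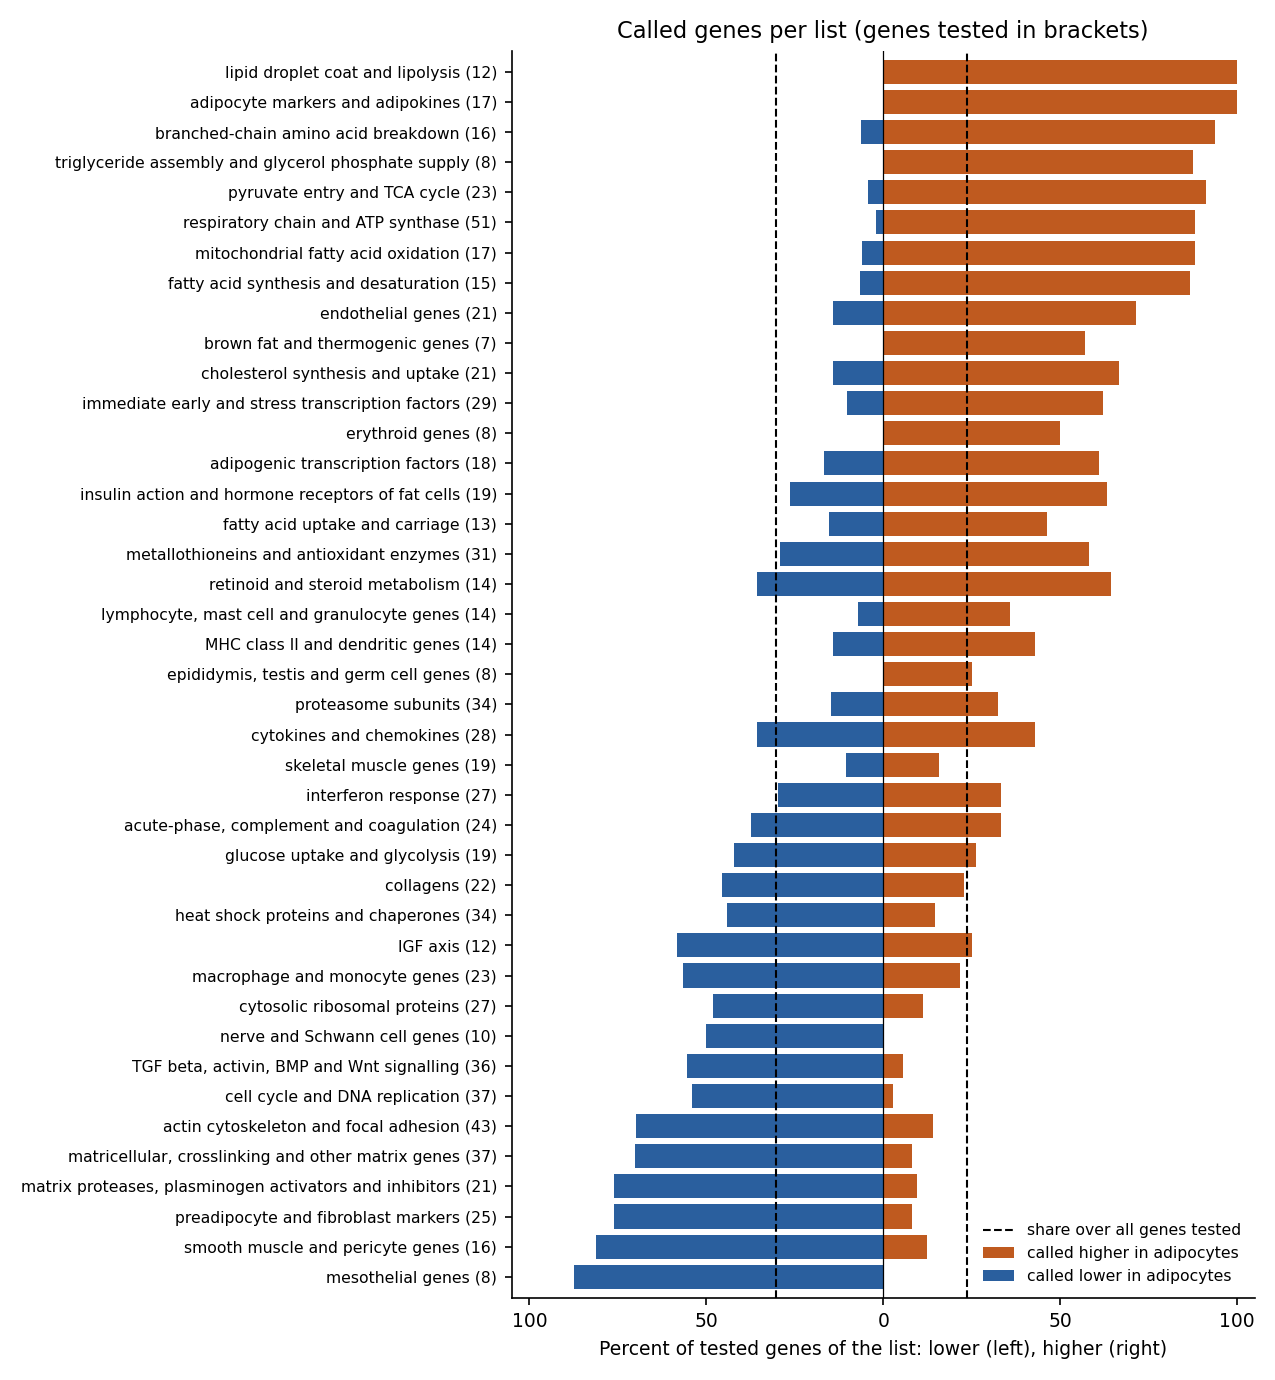
Percent of the tested genes of each of the 41 lists that were called lower (blue, left) or higher (orange, right) in adipocytes, with the number tested in brackets and dashed lines at the shares over all genes tested, 30.2% and 23.8%. Lists of fat storage and mitochondria stand at the top and lists of smooth muscle, fibroblasts and mesothelium at the bottom.

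Fibroblast genes stood mostly on the stromo-vascular side. Of 25 preadipocyte and fibroblast markers 19 were lower in adipocytes and 2 higher, with a median of -2.17 (18 lower and 1 higher in the actin-adjusted fit). Pdgfra, the platelet-derived growth factor receptor that marks fat cell precursors, had 326, 104 and 174 in adipocytes and 15439, 16703 and 17530.4 in stromo-vascular cells, a 73.9-fold deficit in adipocytes (log2 -6.21 ± 0.40 SE, adjusted p = 7.6e-09). Thy1, a surface glycoprotein of fibroblasts, was lower at log2 -4.38 and Mfap5, a microfibril protein, at -5.39. Dpt, the matrix protein dermatopontin, went the other way. Its signals were 4971, 5066 and 7014 in adipocytes and 191, 197 and 114 in stromo-vascular cells, 27.8-fold higher in adipocytes.

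Collagens stood on both sides. Of 22 tested 10 were lower in adipocytes, 5 higher and 7 not called, with a median of -0.16 (8 lower and 3 higher in the actin-adjusted fit). Col1a1, a chain of the fibrillar type I collagen, had 4010.3, 5008 and 4112 in adipocytes and 83964, 85096 and 100052 in stromo-vascular cells, a 20.4-fold difference (log2 -4.35 ± 0.13 SE, adjusted p = 1.5e-12). Col3a1, the chain of fibrillar type III collagen, was lower at log2 -1.64. Col15a1, a chain of a collagen of basement membrane zones, was higher in adipocytes, with 22153, 22994 and 19041 in adipocytes and 1014, 1203 and 1122 in stromo-vascular cells. Matricellular, crosslinking and other matrix genes counted 26 lower and 3 higher of 37, with a median of -1.79 (23 and 2). Lox, the lysyl oxidase that crosslinks collagen, had 808, 716 and 816 in adipocytes and 44459, 44078 and 48381 in stromo-vascular cells. Fbln2, an elastic fibre protein, was lower at log2 -5.50, Tnc, tenascin C, at -4.89 and Fn1, fibronectin, at -2.56. Sparc, a collagen chaperone of the matrix, differed by 0.25 ± 0.13 (SE, adjusted p = 0.12) and was not called.

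Proteases that cut matrix, their inhibitors and plasminogen activators counted 16 lower and 2 higher of 21, with a median of -2.38 (12 and 0 in the actin-adjusted fit). Mmp3, stromelysin 1, had 123, 258 and 157 in adipocytes and 14307, 15626 and 12888 in stromo-vascular cells, 67.1-fold lower in adipocytes. Timp1, an inhibitor of such proteases, was lower at log2 -4.83 and Serpinf1, a secreted serpin also called pigment epithelium-derived factor, at -5.29. The protease Mmp3 and the inhibitor Timp1 thus stood on the same side.

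Smooth muscle and pericyte genes had the most negative median of the 41 lists, -3.18, with 13 lower and 2 higher of 16 (13 and 1 in the actin-adjusted fit). Tagln, the actin-binding protein transgelin, had 813, 825 and 888 in adipocytes and 51422, 60647 and 65073 in stromo-vascular cells, 66.7-fold lower in adipocytes. Cnn1, calponin of differentiated smooth muscle, had 57.8, 21.2 and 36.1 in adipocytes and 9408, 10096 and 9388 in stromo-vascular cells. Acta2, smooth muscle actin, was lower at log2 -4.01, Myh11, smooth muscle myosin, at -4.27 and Myl9, a myosin light chain with a CArG box shown above, at -3.16. Mcam, an adhesion molecule that pericytes and endothelium carry, was higher in adipocytes by 3.28. Of the wider actin cytoskeleton and focal adhesions 30 genes were lower and 6 higher of 43, with a median of -1.14 (22 and 4). Cnn2, the calponin of non-muscle cells, had 524, 348 and 407 in adipocytes and 14352, 16113 and 15366 in stromo-vascular cells, Tpm1, a tropomyosin, was lower at -4.88, and Vcl, the focal adhesion protein vinculin, at -1.35.

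Markers of cell types were set beside the labels of the fractions. Summed over the markers used for each type, adipocyte markers reached 244920 to 303100 in the adipocyte arrays and 2114 to 2690 in the stromo-vascular arrays. Fibroblast markers were 44584 to 50450 against 217310 to 244080, smooth muscle markers 4487 to 6058 against 107490 to 129140, and mesothelial markers 961 to 1627 against 6546 to 6609. These sums were thus highest where the label of the fraction places those types. Even so, 1 of 6 fibroblast and 1 of 6 smooth muscle markers were called higher in adipocytes. The fibroblast sum on the adipocyte arrays came mostly from Dcn and Col3a1, with mean signals of 23089 and 18320. Pdgfra and Thy1, at 201 and 328, lay below the median of all values. Endothelial markers ran the other way, 8001 to 9437 in the adipocyte arrays and 1165 to 1637 in the stromo-vascular arrays, as did erythroid markers, 20661 to 22065 against 561 to 1084, a sum carried by Hba-a1; Slc4a1 overlapped between the fractions. Sums of macrophage markers overlapped, 10715 to 17655 against 14099 to 18919, though 2 of 6 were called higher in adipocytes and 3 lower. Cd14 was bright on the adipocyte arrays (mean 8694 against 4633), and Cd68 was lower there (1070 against 5183). Sums over the whole macrophage and monocyte list did not overlap, 25936 to 41265 against 59865 to 67786. The part of these other cell types in the results was not tested.

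**Figure D4:**
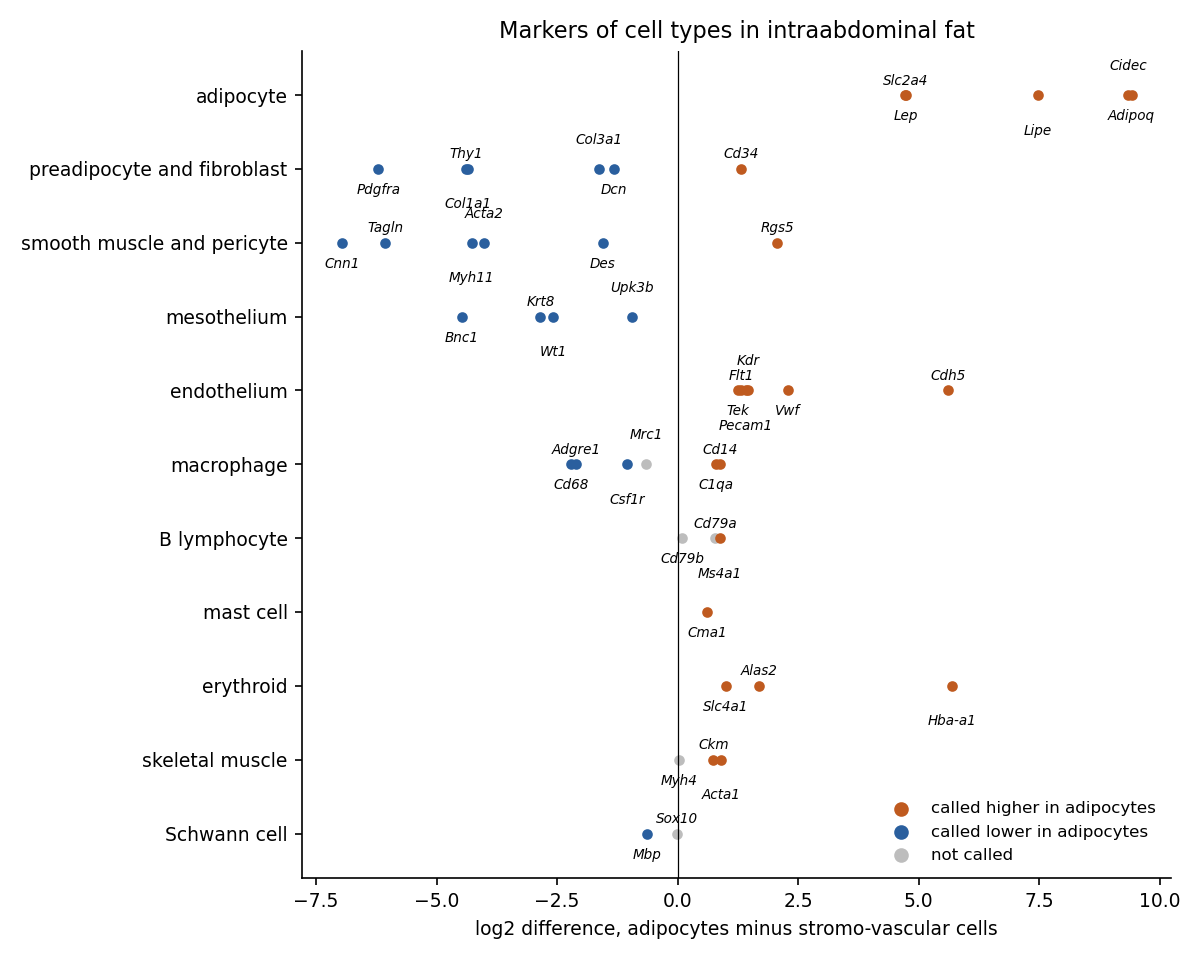
log2 difference, adipocytes minus stromo-vascular cells, for tested markers of 11 cell types; orange points were called higher in adipocytes, blue lower and grey were not called. Adipocyte, endothelial and erythroid markers lie to the right of 0 and most fibroblast, smooth muscle and mesothelial markers to the left. Of the markers this report names, Pecam1, Ckm, Slc4a1, Mbp and Upk3b lost their call when 1 array was left out, and Pecam1 turned to -0.62 in the actin-adjusted fit. The other plotted markers were not checked for this.

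Of 8 mesothelial genes 7 were lower in adipocytes and 0 higher, with a median of -1.76 (5 and 0 in the actin-adjusted fit). Bnc1, the zinc finger factor basonuclin, had 24.5, 37.2 and 119 in adipocytes and 2211, 1826 and 2023 in stromo-vascular cells. Wt1, the Wilms tumour factor that marks visceral mesothelium and some visceral fat precursors, was lower at log2 -2.58, and Krt7, a simple epithelial keratin, at -2.36. The mesothelial markers Msln and Krt19 fell below the filter on low signal.

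Of 21 endothelial genes 15 were higher in the adipocyte fraction and 3 lower, with a median of 1.46. The actin-adjusted fit called 7 and 2, and 9 were called higher when the dimmer 50% of probe sets was left out, which removes members from the test. Cdh5, the cadherin of endothelial junctions, had 4829.6, 5069.6 and 5182 in adipocytes and 102, 59.1 and 39.5 in stromo-vascular cells, a 48.7-fold difference (log2 5.61 ± 0.25 SE, adjusted p = 1.5e-10). Cldn5, an endothelial claudin, was higher by log2 6.06, Nos3, endothelial nitric oxide synthase, by 4.73 and Ramp2, a receptor partner for adrenomedullin, by 3.41. Pecam1, an adhesion molecule of endothelium and blood cells, differed by 1.42 with signals of 559.6, 1268 and 1433 in adipocytes and 678, 130.4 and 455 in stromo-vascular cells; its call was lost without adipocyte replicate 2 or 3 or stromo-vascular replicate 2, and the actin-adjusted value was -0.62.

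Macrophage and monocyte genes split, with 13 lower and 5 higher of 23 and a median of -1.04. The actin-adjusted fit called 4 lower and 3 higher, and the number higher was 2 without adipocyte replicate 1 and 3 without stromo-vascular replicate 1 or 3. Lyz2, lysozyme, had 1464, 951 and 919 in adipocytes and 9016, 8445 and 8174 in stromo-vascular cells, 7.61-fold lower in the adipocyte fraction. Cd68, a lysosomal glycoprotein, was lower at log2 -2.21 and Lgmn, the lysosomal protease legumain, at -2.67. Cd14, the endotoxin co-receptor, was higher by 0.88. Antigen presentation by MHC class II and dendritic genes counted 6 higher and 2 lower of 14, with a median of 0.66 (4 and 0 in the actin-adjusted fit, in which the 2 lower calls were lost). Cd74, the invariant chain, had 13106, 5848 and 3834 in adipocytes and 461, 227 and 235 in stromo-vascular cells. Its adipocyte arrays spread more than 3-fold among themselves, yet all lay above the stromo-vascular arrays (20.1-fold). H2-Aa and H2-Eb1, chains of the class II molecules, were higher by log2 4.67 and 3.77.

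Lymphocyte, mast cell and granulocyte genes were mostly too dim to test. Of 14 tested 5 were higher in adipocytes and 1 lower, with a median of 0.44 (2 and 1 in the actin-adjusted fit; 3 higher without adipocyte replicate 3 or stromo-vascular replicate 2 or 3). Ighm, the heavy chain of IgM made by B cells, had 32638, 34323 and 24721 in adipocytes and 637, 131 and 307 in stromo-vascular cells, 88.5-fold higher in the adipocyte fraction. The T cell markers Cd3e, Cd3d and Cd3g lay below the filter, with sums of 93.8 to 176 on the adipocyte and 188 to 349 on the stromo-vascular arrays. Of 8 erythroid genes 4 were higher and 0 lower, with a median of 0.63 (2 and 0). Hba-a1, alpha globin, had 19453, 21372 and 18799.5 in adipocytes and 538, 163 and 448 in stromo-vascular cells (51.5-fold), and Hbb-b2, a beta globin, was higher by log2 5.14. Only the stromo-vascular cells had been through red-cell lysis.

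Genes of neighbouring tissues were mostly dim or not called. Of 19 skeletal muscle genes 3 were higher, 2 lower and 14 not called, with a median of 0.04 (2 and 4 in the actin-adjusted fit). The exception in size was Myl1, a myosin light chain of fast muscle, with 5378, 5239 and 5061 in adipocytes and 174, 53.9 and 34.9 in stromo-vascular cells (45.8-fold). Of 8 epididymis, testis and germ cell genes 2 were called higher and 0 lower, with a median of 0.60; both calls were lost in the actin-adjusted fit and without adipocyte replicate 1 or stromo-vascular replicate 2, and 1 was called without adipocyte replicate 3 or stromo-vascular replicate 1. Of 10 nerve and Schwann cell genes 5 were lower and 0 higher, with a median of -0.63 (2 and 0 in the actin-adjusted fit; 3 lower without adipocyte replicate 2 or stromo-vascular replicate 3). Ncam1, a neural cell adhesion molecule, had 77.04, 325 and 455 in adipocytes and 2386, 2211 and 2091 in stromo-vascular cells, and Pmp22, a myelin protein also made by fibroblasts, was lower at log2 -1.19.

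Cell cycle and DNA replication genes stood on the stromo-vascular side, with 20 lower in adipocytes and 1 higher of 37 and a median of -0.98. The actin-adjusted fit called 9 lower and 1 higher. Rrm1, the large subunit of the reductase that makes deoxynucleotides, had 54.2, 151 and 123 in adipocytes and 4186, 5343 and 4971 in stromo-vascular cells (33.8-fold), and its small subunit Rrm2 was lower at log2 -4.28. Cdkn2c, an inhibitor of cyclin D kinases that arrests the cycle, was the member higher in adipocytes, with 15099, 12976 and 12202 in adipocytes and 1468, 1349 and 1418 in stromo-vascular cells. Pcna, the sliding clamp of DNA polymerase, differed by 0.16 ± 0.16 (SE, adjusted p = 0.42) and was not called.

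Immediate early and stress transcription factors were mostly higher in the adipocyte fraction, with 18 higher and 3 lower of 29 and a median of 1.00. The actin-adjusted fit called 10 and 0, and the number lower was 1 without stromo-vascular replicate 1 or 3. Fosb, a Fos family factor, had 43855, 46917 and 56725 in adipocytes and 887, 664 and 1030.3 in stromo-vascular cells, 55.1-fold higher in adipocytes (log2 5.78 ± 0.16 SE, adjusted p = 9.9e-13). Atf3, a stress-induced repressor, was higher by log2 3.02, Zfp36, which destabilizes cytokine RNA and has a CArG box shown above, by 3.22, Egr2, a zinc finger factor, by 2.52 and Btg2, an antiproliferative factor, by 2.05. Egr1 differed by 0.16 ± 0.25 (SE, adjusted p = 0.62). Fos had 12310.5, 12002 and 60694 in adipocytes and 7445, 6193 and 6887 in stromo-vascular cells; adipocyte replicate 3 was by far the highest array, and the call was lost in the actin-adjusted fit (adjusted p = 0.74). Without replicate 3 the list still counted 17 higher and 2 lower.

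Heat shock proteins and chaperones leaned to the stromo-vascular side, with 15 lower in adipocytes and 5 higher of 34 and a median of -0.40 (8 and 2 in the actin-adjusted fit; 2 higher without stromo-vascular replicate 1). Pdia3, a disulphide isomerase of the endoplasmic reticulum, had 1900.4, 1701 and 2173 in adipocytes and 19273, 14233 and 12941 in stromo-vascular cells, 7.82-fold lower in adipocytes, and Pdia6, another such isomerase, was lower at log2 -2.10. Dnajb1, a heat-inducible co-chaperone, was higher in adipocytes, with 7559.8, 10953 and 19332 in adipocytes and 1660.2, 1805 and 1467 in stromo-vascular cells. Hspa8, the constitutive member of the same family as the inducible genes above, differed by 0.06 ± 0.20 (SE, adjusted p = 0.83), and Hspa1b by -0.73 ± 1.14 (adjusted p = 0.62). Hspa1a was called higher in adipocytes, by 2.68 ± 0.88 (SE, adjusted p = 0.0198). Its call was lost in the actin-adjusted fit, with the 6 intraabdominal arrays alone and without stromo-vascular replicate 1. Without adipocyte replicate 3, where the inducible genes were extreme, the list counted 17 lower and 4 higher.

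Cytokines and chemokines stood on both sides, 12 higher and 10 lower of 28, with a median of 0.14 (7 and 8 in the actin-adjusted fit). Cxcl1, a neutrophil attractant, had 68705, 72183 and 61044 in adipocytes and 1006, 1579 and 1506 in stromo-vascular cells, 48.7-fold higher in the adipocyte fraction. Cxcl9, a T cell attractant induced by interferon gamma, was higher by log2 5.51 and Ccl2, a monocyte attractant, by 2.24. Cxcl12, a stromal attractant of lymphocytes and progenitors, had 354, 412 and 347 in adipocytes and 21211, 15084 and 14248 in stromo-vascular cells, 40.5-fold lower in adipocytes. Csf1, the macrophage growth factor, was lower at -4.29 and Il6, interleukin 6, at -1.77. Acute-phase, complement and coagulation genes also divided, 8 higher and 9 lower of 24, with a median of -0.20 (6 and 8). Serpina3n, a secreted inhibitor of granzyme and elastase type proteases, had 45205, 58774 and 32602 in adipocytes and 2506, 3761 and 2507 in stromo-vascular cells, and Hp, the haemoglobin binder haptoglobin, was higher by 2.32. Serping1, the C1 inhibitor, was lower at -4.46, F3, tissue factor, at -3.61 and Saa3, a serum amyloid A, at -2.14.

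Interferon response genes had 9 higher and 8 lower of 27, with a median of -0.08 (5 and 3 in the actin-adjusted fit; 5 lower without adipocyte replicate 3). Irf1, an interferon-induced transcription factor, had 11580.5, 8521 and 8472 in adipocytes and 716, 987 and 676 in stromo-vascular cells (11.5-fold higher in adipocytes), and Psmb10, a subunit of the immunoproteasome, was higher by log2 1.45. Ifit2, an antiviral protein, was lower at -3.23 and Usp18, which removes ISG15 from proteins, at -2.22. The list's shares of 33.3% higher and 29.6% lower lay near or somewhat above those over all genes tested.

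Signalling by TGF beta, activin, BMP and Wnt counted 20 lower in adipocytes and 2 higher of 36, with a median of -0.85 (13 and 1 in the actin-adjusted fit). Sfrp1, a secreted Wnt antagonist, was lower at log2 -6.00 and Fzd2, a Wnt receptor, at -5.00. Inhba, the activin A subunit, had 284, 272 and 253 in adipocytes and 7501, 6430.3 and 7266 in stromo-vascular cells (22.9-fold). Fstl1, a follistatin-like secreted protein, was lower at -4.16 and Tgfb2, a TGF beta ligand, at -2.85, whereas Tgfb1 differed by 0.08 ± 0.35 (SE, adjusted p = 0.87). In the IGF axis 7 were lower and 3 higher of 12, with a median of -1.20 (6 and 2). Igfbp3, the binding protein that carries most circulating IGF, had 195, 357 and 283 in adipocytes and 33538, 32888 and 42586 in stromo-vascular cells, 116-fold lower in adipocytes. Igfbp2 was lower at -4.57. Igfals, which forms a ternary complex with IGF and its binding protein, had 7100.0, 6307 and 5851 in adipocytes and 113, 73.4 and 59.03 in stromo-vascular cells, 53.7-fold higher in adipocytes, and Ghr, the growth hormone receptor, was higher by 4.20. The binding proteins Igfbp2 and Igfbp3 thus stood opposite to Igfals.

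Retinoid and steroid metabolism counted 9 higher and 5 lower of 14, with a median of 1.89 (8 and 3 in the actin-adjusted fit). Aldh1a7, an aldehyde dehydrogenase, had 5928, 4662 and 5647 in adipocytes and 70.3, 153 and 129.8 in stromo-vascular cells, and Hsd17b4, a peroxisomal enzyme named for steroid conversion that also oxidizes fatty acids, was higher by log2 2.72. Aldh1a3, which makes retinoic acid, was lower at -3.43. Cholesterol synthesis and uptake had 14 higher and 3 lower of 21, with a median of 0.73, of which 4 and 1 were called in the actin-adjusted fit. Nsdhl, a sterol dehydrogenase of the late pathway, had 3269.8, 2955 and 2903 in adipocytes and 858, 829 and 853 in stromo-vascular cells. Scarb1, the HDL receptor, was higher by 2.48 and Hmgcs1, HMG-CoA synthase, by 1.23.

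Of 27 cytosolic ribosomal proteins 13 were lower in adipocytes and 3 higher, with a median of -0.47, but 1 and 1 were called in the actin-adjusted fit. Rpl13a, a protein of the large subunit, had 1450.5, 1495 and 1574 in adipocytes and 8909.6, 9320.2 and 10894 in stromo-vascular cells (6.28-fold lower) and was the member called lower in both fits. Of 34 proteasome subunits 11 were higher and 5 lower, with a median of 0.15 (6 and 0). Psme1, an activator subunit induced by interferon, was higher by log2 1.20 and Psmb7, a catalytic subunit, by 1.01. Metallothioneins and antioxidant enzymes had 18 higher and 9 lower of 31, with a median of 0.62 (14 and 5). Mt2, a metal-binding metallothionein, had 179425, 224519 and 141452 in adipocytes and 16866, 18996 and 14772 in stromo-vascular cells (10.6-fold), Mt1, a related metallothionein, was higher by 2.86, Sod2, the mitochondrial superoxide dismutase, by 3.03, Ephx2, a soluble epoxide hydrolase, by 3.22 and Cat, catalase, by 1.74. Prdx4, the peroxiredoxin of the endoplasmic reticulum, was lower at -2.33.

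The same contrast in subcutaneous fat, from other arrays, was set beside the intraabdominal one. There 3553 genes (55.2%) were called, and 2703 genes were called in both depots in the same direction, which is 77.8% of the intraabdominal and 76.1% of the subcutaneous calls; 51 were called in opposite directions. The difference between the depots was tested as the intraabdominal minus the subcutaneous log2 difference, and 733 probe sets passed (8.43%), 394 above 0 (4.53%) and 339 below (3.9%); with arrays centred on their medians the split was 466 and 229. By gene 586 passed (9.11%), 316 above 0 (4.91%) and 270 below (4.2%).

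Hormone and protease inhibitor genes led the differences above 0. Agt, angiotensinogen, the precursor of the pressor angiotensin, had 15473, 18882 and 14663 in adipocytes and 85.2, 86.1 and 94.9 in stromo-vascular cells, and in subcutaneous fat 2245, 2359.5 and 1952 against 721, 817 and 724. The fraction difference was 6.98 in intraabdominal and 1.48 in subcutaneous fat, and the depots differed by 5.50 ± 0.22 (SE, adjusted p = 4.2e-09). The intraabdominal adipocyte arrays were thus the highest of the 4 groups and the intraabdominal stromo-vascular arrays the lowest. Serpina3n differed by 3.93 against -0.25 with a depot difference of 4.18 ± 0.30 (SE, adjusted p = 1e-06), Myl1 by 5.52 against 1.92, and Itih5, a hyaluronan-associated inhibitor chain, by 4.72 against 1.45. Ccl8, a chemokine for monocytes, was not called in intraabdominal fat (1131, 469 and 449 in adipocytes and 586, 731 and 556 in stromo-vascular cells, adjusted p = 0.99) and was higher in subcutaneous stromo-vascular cells (32576, 33025 and 33745 against 2371, 1523 and 3044 in adipocytes), a depot difference of 3.88 ± 0.42 (SE, adjusted p = 3.9e-05). Serpinb2, an inhibitor of plasminogen activators, differed by -0.64 in intraabdominal fat, where it was not called (adjusted p = 0.061), and by -5.14 in subcutaneous fat. Metallothionein fraction differences were also larger in intraabdominal fat, for Mt2 3.41 against 0.84 and for Mt1 2.86 against 0.68. Here the depots lay apart mainly in the stromo-vascular cells. Mean Mt2 signals were 181799 in intraabdominal and 180028 in subcutaneous adipocytes, and 16878 and 100711 in stromo-vascular cells. For Mt1 they were 57933 and 72541 in adipocytes and 8011 and 44770 in stromo-vascular cells. Of the metallothionein and antioxidant list 13 genes of 31 passed above 0 and 0 below. Of the cytokine list 12 passed above and 1 below, and of the acute-phase list 9 and 1.

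Contractile genes led the differences below 0. Cnn1 was lower in intraabdominal adipocytes at -6.97, but in subcutaneous fat it was dim in both fractions (85.8, 153 and 81.98 in adipocytes and 54.5, 40.3 and 235 in stromo-vascular cells), and the depots differed by -7.14 ± 0.59 (SE, adjusted p = 3.4e-06). Myh11 differed by -4.27 against 1.33, with a depot difference of -5.60 ± 0.78 (SE, adjusted p = 0.00034). Of the smooth muscle list 10 of 16 genes passed below 0 and 0 above. Bnc1 of mesothelium differed by -4.47 against 0.24 and Cck by -7.07 against -2.41. Igfbp3 and Col1a1 had depot differences of -3.28 and -2.11. Cidea, a lipid droplet protein rich in brown fat, was higher in adipocytes of both depots, by 2.14 in intraabdominal and 7.14 in subcutaneous fat (20451, 14668 and 17799 on the subcutaneous adipocyte arrays); in the actin-adjusted fit its intraabdominal difference was 1.90 and no longer called (adjusted p = 0.17), and the depots differed by -5.01 ± 0.55 (SE, adjusted p = 4.4e-05). Mup3, a major urinary protein, differed by 2.03 against 7.23. Of the fatty acid oxidation list 7 genes of 17 passed below 0 and 1 above, and of the brown fat list 4 and 0 of 7. The adipocyte marker list, by contrast, had 3 above and 1 below of 17. The actin ratio was 2.35 to 3.10 in subcutaneous adipocytes and 1.20 to 1.24 in subcutaneous stromo-vascular cells, and its part in the depot differences was not tested beyond the actin-adjusted fit.

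**Figure D5:**
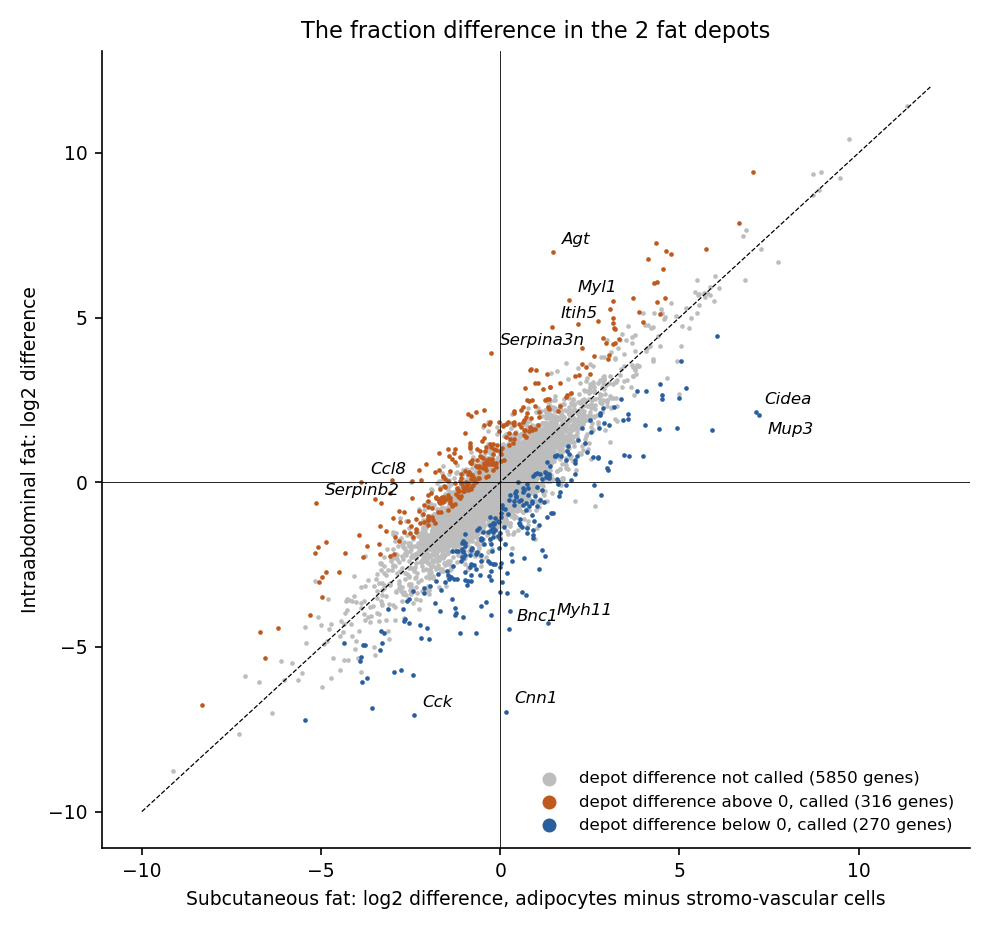
log2 difference between the fractions of each gene tested in subcutaneous fat (horizontal) and intraabdominal fat (vertical); the dashed line marks equal differences. The 316 genes with a called depot difference above 0 are orange, the 270 below 0 are blue, and the 5850 others are grey.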

How the data were processed

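RNA was measured on 12 Affymetrix mouse arrays of 12488 probe sets, 3 for each of 2 fractions of 2 depots. The authors deposited 1 linear intensity per probe set and array, made with MAS5 per the submitters' processing notes. Its version is not given in the sources used here, and detection calls were not used. Trimmed means (2%) of the arrays agreed within a ratio of 1.00017, so values were used as deposited. The number of arrays limits the precision.

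The 66 control probe sets were left out, and 10833 of the other 12422 had 1 gene symbol in the platform annotation, which can be old, 396 several and 1193 none here. Probe sets with several symbols named no gene. A gene stands for its probe set with the highest mean log2 signal, which gave 8251 genes. Values were taken as log2(signal + 40.2), the pseudocount being the 10th percentile of all values. The dimmest 30% of probe sets by mean log2 signal over all 12 arrays was not tested. In R 4.3.3, limma 3.58.1 (lmFit, then contrasts, then eBayes with trend) fitted the 4 group means to the 12 arrays with 8 residual degrees of freedom, and p-values were adjusted by Benjamini-Hochberg over the 8695 probe sets tested. The script was tested on simulated data. The median standard error was 0.241 for a fraction difference and 0.341 for a depot difference. No 2 arrays were identical (0 pairs).

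Members and lists were chosen with earlier results of these data known, so counts over lists are descriptions. Named genes were taken by rule as the first 4 and the up to 4 members with the smallest p of each list and, where groups did not overlap and the higher group reached the median signal, 497, the 10 largest called fraction differences and the 6 largest depot differences in each direction. The text takes part of them. Myl9 was added for its promoter and Hspa1a and Dcn after their values were seen.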

Additional observations from a re-analysis of the deposited data

Results flagged for a closer look

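Each gene below is named in the comparison of the fractions and had a fraction difference, adipocytes minus stromo-vascular cells, that differed between the depots by limma's test of the difference itself (adjusted p under 0.05). The value given is the intraabdominal minus the subcutaneous log2 difference. A value above 0 means that the gene leaned more to adipocytes, or less to stromo-vascular cells, in intraabdominal fat. A value below 0 means the reverse. The 2 depots have separate arrays and share none.

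Among secreted and hormone-related genes the values were 5.50 for Agt, 4.18 for Serpina3n, 3.27 for Itih5, 2.15 for Rbp4, 2.21 for Saa3, 0.66 for Hp and 4.49 for Serpinb2. Chemokines stood above 0 as well, 3.88 for Ccl8, 1.23 for Cxcl12, 1.01 for Cxcl1 and 0.88 for Ccl2. Cxcl12 was lower in adipocytes of both depots, at -5.34 and -6.57, so that its value above 0 is a smaller deficit. The same holds for Saa3, at -2.14 and -4.34. Ccl8 and Serpinb2 were not called in intraabdominal fat. Cck had -4.66, Mup3 -5.20 and Serpinf1 -1.42.

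In fat metabolism the values were 2.39 for Plin4, 2.40 for Zbtb16, 1.19 for Cyp2e1, 1.08 for Lpl, 1.05 for Nr1h3, 1.04 for Bcat2, 0.89 for Scd1 and 0.75 for Hsd17b4. Below 0 lay Cidea at -5.01, Ucp1 at -2.61, Fabp5 at -1.88, Cd36 at -1.60 and Pkm at -0.80. Such a value can come from either fraction. Mean signals in intraabdominal and subcutaneous adipocytes were 11841 and 12044 for Zbtb16, 48568 and 37703 for Plin4 and 5880 and 5551 for Cd36. In stromo-vascular cells they were 54.9 and 416, 30.7 and 252, and 231 and 44.5. Cidea had 782 and 17639 in adipocytes and 144 and 104 in stromo-vascular cells. Ucp1 was not called in intraabdominal fat (0.38), and its subcutaneous signals were 1518, 1271 and 1189 in adipocytes and 144, 162 and 93.1 in stromo-vascular cells. Metal-binding and antioxidant genes were above 0, 2.57 for Mt2, 2.18 for Mt1 and 2.07 for Sod2. Mean Sod2 signals were 9570 in intraabdominal and 10480 in subcutaneous adipocytes, and 1138 and 5314 in stromo-vascular cells.

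Smooth muscle and mesothelial genes lay below 0, with 0 above and 10 below in the smooth muscle list and 0 and 4 in the mesothelial list. Fibroblast and matrix genes stood on both sides. The fibroblast marker list had 3 above and 3 below, collagens 4 and 5, and other matrix genes 5 and 2. The values were -7.14 for Cnn1, -5.60 for Myh11, -2.22 for Tagln, -1.59 for Tpm1, -1.18 for Myl9, -2.11 for Col1a1, -1.51 for Fstl1, -1.75 for Prss23, -4.71 for Bnc1, -2.58 for Wt1 and -2.41 for Upk3b. Aldh1a3 had -4.15, Igfbp2 -3.88, Igfbp3 -3.28 and Ncam1 -3.09. Above 0 were Dpt at 2.61, Dcn at 1.18, Col15a1 at 1.26, Tmem45a at 1.57, Tgfb1 at 3.10, Myl1 at 3.60 and Ghr at 1.05. Of these, Dcn (-1.33 and -2.50) and Tmem45a (-6.76 and -8.33) were lower in adipocytes of both depots, with the smaller deficit in intraabdominal fat. Tgfb1 was not called in intraabdominal fat (0.08) and was lower in subcutaneous adipocytes (-3.02).

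Among endothelial and immune genes the values were 2.40 for Ramp2, 1.90 for Cdh5, 1.77 for Cldn5, 1.92 for Ighm and -1.49 for Lyz2. Fos had -2.82, Usp18 -1.23, Rrm1 -1.74 and Rrm2 -1.72.

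The depot call of 17 of the 61 genes was lost in the actin-adjusted fit: Bcat2, Ccl2, Cxcl1, Dcn, Fos, Hp, Ighm, Myl9, Ncam1, Nr1h3, Pkm, Rrm1, Tmem45a, Ucp1, Usp18, Wt1 and Zbtb16. That of Bcat2, Ccl2, Dcn, Hp, Ighm, Myl9, Prss23, Rrm1, Rrm2 and Usp18 was lost when 1 array was left out. With arrays centred on their medians Pkm, Prss23 and Usp18 lost theirs, and with quantile normalization Bcat2, Hp, Prss23, Rrm1, Rrm2 and Usp18. Other pseudocounts, no filter or the replicate block took the call from Hp, Prss23, Rrm1 or Usp18 in at least 1 of these fits.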

How the results depend on the processing

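The count of probe sets that differed between the intraabdominal fractions, 4462, lay between 3736 and 4719 under other pseudocounts, filters, scalings, array weights, the replicate block and a fit of the 6 intraabdominal arrays alone. It lay between 4021 and 4215 when each of the 6 intraabdominal arrays was left out in turn. The count for the depot difference, 733, lay between 645 and 850 under the same settings where they apply, and between 536 and 819 when each of the 12 arrays was left out. With the actin 3' to 5' ratio as a covariate the counts were 2173 and 403. That ratio separates the fractions, so the covariate shares the contrast by construction. Of 163 named genes tested in the fraction comparison 154 kept direction and side of the threshold in that fit, 7 lost their call, 1 gained one and Pecam1 turned to -0.62 (adjusted p = 0.7). Of 61 named genes with a depot difference 44 kept it in that fit and 17 lost their call. Under each other setting that kept all arrays, at least 160 of 163 genes, or 146 of 146 with the stricter filter, and at least 55 of 61 depot differences, or 53 of 53, kept theirs.

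The log2 difference in the actin 3' to 5' ratio, 0.79, ranged from 0.71 to 0.91 when 1 array was left out and was 0.73 with the GAPDH control probe sets.

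Arrays of the 2 fractions share replicate numbers. Deviations of same-numbered arrays from their group means correlated at -0.09, 0.03 and -0.06, so the numbers were not taken to pair the arrays. With the replicate block 4405 and 645 probe sets were called.

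Limits are the 3 arrays a group, which allow no exact test of a single gene under p = 0.1; pooled tissue of unstated replication; MAS5 values without detection calls, so that signals near the pseudocount have no lower bound of their own; and the culture of 1 fraction only.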
